A study of Mus musculus with 6 samples.

Results

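The Fc gamma receptors and their partner chains were followed in RNA of microglia, the resident macrophages of nervous tissue. The group comprised the 6 genes of the deposited expression table whose symbols are Fcgr1, Fcgr3, Fcgr4, Fcgr2b, Fcer1g and Fcgrt, out of 37447 genes listed. It was picked by gene name, with earlier results of these data known. Microglia had been sorted from the optic nerves of C57BL/6 mice aged 3 months, and their RNA was amplified to cDNA and sequenced. The FMC group held 4 libraries from mice with the genotype Nf1 flox/mut; GFAP-Cre, and the FM group held 2 libraries from mice with the genotype Nf1 flox/mut. All 6 libraries thus came from animals whose Nf1 alleles were 1 floxed and 1 mutant copy, Nf1 being the gene of neurofibromatosis type 1, and no library without a mutant Nf1 allele was compared. The GFAP promoter that drives Cre is active in astroglial cells, so the microglia themselves are not the cells in which this driver is known for its activity. FMC 1 and FMC 4 were labelled female and FMC 2 and FMC 3 male, while FM 1 was labelled male and FM 2 female. The labels call the libraries biological replicates and do not say whether a library pools several animals. Levels are given in FPKM, a fragment count divided by gene length and library size, so levels of different genes are set beside each other per length. How evenly the amplification acted on different genes was not tested, so such comparisons are approximate.

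Fc receptors bind the constant part of antibodies and so tie antibody-coated targets to the response of the cell. Activating Fc gamma receptors signal through the FcR gamma chain, which carries an immunoreceptor tyrosine-based activating motif (ITAM) that recruits the kinase Syk. The inhibitory receptor carries an inhibitory motif (ITIM) in its own tail that recruits phosphatases such as the one encoded by Inpp5d. In microglia these receptors are known for the uptake of antibody-coated material, and the balance of activating to inhibitory chains is commonly taken to set how strongly a macrophage answers to bound antibody.

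The 2 signalling motifs are shown because they are what makes a chain activating or inhibitory. Both stretches were read from the coding sequences of the GENCODE M21 transcripts (GRCm38), 5′ to 3′, and the capitals mark the codons of the motif tyrosines. The first lies in the tail of the inhibitory receptor at coding bases 937 to 978, and the second in the FcR gamma chain at coding bases 181 to 249.
Fcgr2b ITIM: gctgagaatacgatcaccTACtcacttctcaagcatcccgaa
Fcer1g ITAM: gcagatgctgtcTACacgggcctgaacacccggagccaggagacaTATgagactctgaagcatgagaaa
The ITAM pattern was found in Fcer1g and in no other of the 6 coding sequences. The shorter ITIM pattern also matched letters within Fcgr1, Fcgr4, Fcer1g and Fcgrt, so a match alone does not mark a working site.

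A stretch shared by 2 of the receptors bears on their levels. The coding sequences of Fcgr3 and Fcgr2b had 83.9% identical bases over all 784 aligned bases, and the likeness was highest in the middle of the alignment. The longest identical run was 129 bases, at coding bases 278 to 406 of Fcgr2b, and is printed because a read inside it cannot be assigned to either gene from its letters.
Shared run of Fcgr2b and Fcgr3: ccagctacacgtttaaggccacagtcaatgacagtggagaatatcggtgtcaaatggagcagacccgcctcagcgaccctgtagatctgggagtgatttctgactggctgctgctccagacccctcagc
Of the 50-base windows of the coding sequence, 166 of 752 in Fcgr3 (22.1%) and 166 of 971 in Fcgr2b (17.1%) also occurred in the other gene. No such window of Fcgr1, Fcgr4, Fcer1g or Fcgrt occurred in another member. The identity of Fcgr4 with Fcgr2b was 63.5% and that of Fcgr1 with Fcgr2b was 59.7%. The sources used here do not give how the authors' counting divided reads between Fcgr3 and Fcgr2b, so levels of this pair are uncertain.

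**Figure D1:**
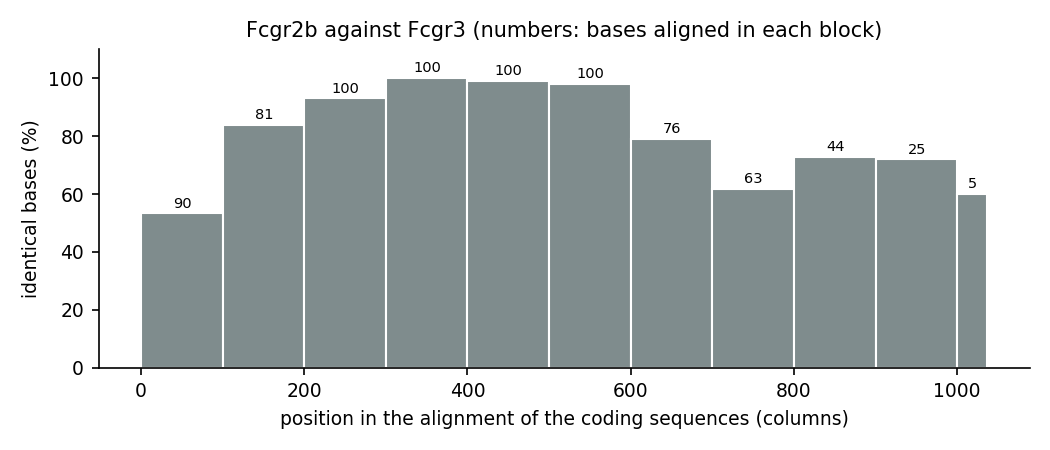
Identity of the coding sequences of Fcgr2b and Fcgr3 (percent of aligned bases, vertical axis) in blocks of 100 alignment columns (horizontal axis), with the number of aligned bases above each bar. The blocks from column 301 to 600 lay at 100%, 99.0% and 98.0%, while the first block lay at 53.3%.

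Some features of the libraries bear on what follows. Summed FPKM lay between 450109 and 674799 in FMC libraries and at 420285 and 608633 in FM libraries, and the 3 female libraries had the 3 highest sums. Nf1 itself lay at 48.0, 58.1, 55.6 and 138 FPKM in FMC 1 to FMC 4, against 39.3 and 50.0 FPKM in FM 1 and FM 2, so the groups overlapped, and a level in sorted microglia does not test whether Cre acted in astroglia. All 11 microglia markers were present, with summed levels of 2952 to 4534 FPKM in FMC and 3157 to 5663 FPKM in FM. Markers of other blood and brain cells were present at lower sums. The higher sums were those of neutrophils, at 370 to 671 FPKM in FMC and 310 and 523 FPKM in FM. Csf3r had the highest mean of the genes on the neutrophil list, at 158 to 301 FPKM over the libraries, and its part in the sum varied. It made 301 of 370 FPKM in FMC 3 and 263 of 310 FPKM in FM 2, but 158 of 671 FPKM in FMC 1. Markers of border-associated macrophages summed to 183 to 345 FPKM in FMC and 428 and 548 FPKM in FM. The sex labels fitted Eif2s3y, a gene of the Y chromosome, at 57.8 to 114 FPKM in male libraries and at most 3.37 FPKM in female ones, but Ddx3y of the same chromosome stood at 6.18 FPKM in the female library FMC 1, within the male range of 5.82 to 11.0 FPKM.

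The chain with the highest level was Fcer1g, which encodes the FcR gamma chain that activating Fc receptors need to reach the cell surface. It ranked between 80 and 112 among 18208 tested genes in the 6 libraries and stood first of the 6 chains in every library. Fcgr3 came second in the 3 libraries that hold a value for it, with ranks of 163 to 244. Fcgr2b (ranks 209 to 503) and Fcgr1 (ranks 375 to 504) followed, and their ranges overlapped: Fcgr1 was the higher of the pair in FMC 1 and FMC 2 and Fcgr2b in the other 4 libraries. Fcgrt (ranks 1663 to 4410) and Fcgr4 (ranks 823 to 7737) were lowest, and Fcgr4 exceeded Fcgrt in FMC 2 and FMC 4 only. Over all libraries the levels averaged 636 ± 227 FPKM for Fcer1g, 202 ± 103 FPKM for Fcgr2b and 162 ± 40.7 FPKM for Fcgr1 (SD, n = 6 each). The means were 32.7 ± 38.7 FPKM for Fcgr4 and 31.95 ± 15.4 FPKM for Fcgrt (SD, n = 6 each), and these neighbours did not differ beyond their spread. Fcgr3 averaged 275 ± 59.4 FPKM (SD, n = 3).

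**Figure D2:**
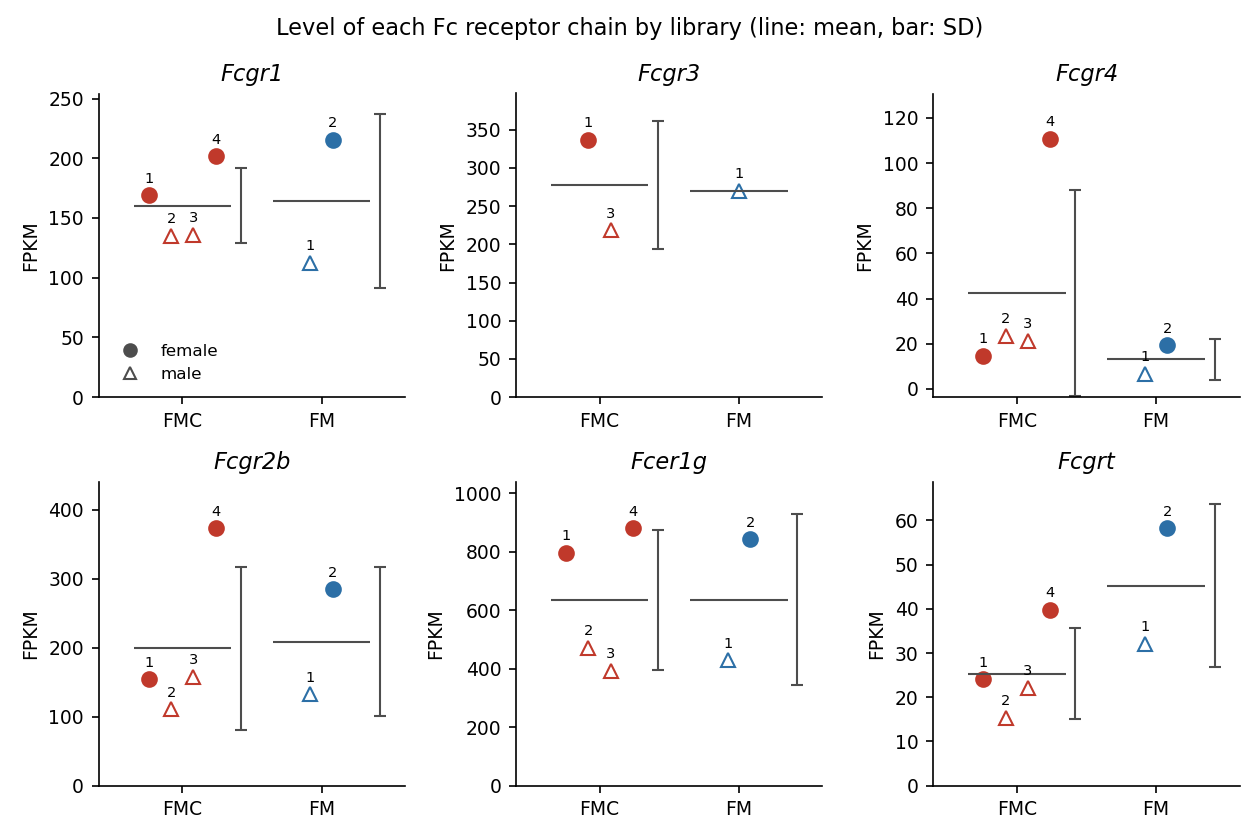
Level of each chain (FPKM, linear axes of different range) in FMC and FM libraries; numbers are the replicate, filled circles female and open triangles male libraries, lines the group means and bars the SD (none where a group has 1 value). FMC 4 stands apart at 111 FPKM for Fcgr4, and the female libraries lie above the male ones for Fcer1g and Fcgr1.

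FMC and FM microglia were then compared for each chain, which asks how the receptors of microglia in the Nf1 optic glioma model differ from those of the control. Fcgr1, Fcgr2b and Fcer1g had about the same mean level in both groups. Fcgr4 averaged higher and Fcgrt lower in FMC, but neither difference passed the test. Of the 5 chains with a value in every library, 0 were called higher and 0 lower by limma at an adjusted p of 0.05, against 0.0% of 18208 tested genes called higher and 0.0275% called lower. Likewise 0 of the 5 had an unadjusted p under 0.05, against 5.34% of tested genes. For 0 of the 5 chains did all FMC libraries lie above or all below both FM libraries, against 4.34% of tested genes above and 8.22% below. The median difference of the 5 chains was -0.0003 (log2) and that of all tested genes -0.12. In bulk RNA, fewer cells of a type and less RNA per cell cannot be told apart, so each level is an average over the sorted cells.

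Among the activating receptors, Fcgr1 (ENSMUSG00000015947, chromosome 3, 96086831 to 96098179, mm9) encodes the high-affinity receptor that binds single IgG molecules. It stood at 169, 135, 136 and 202 FPKM in FMC 1 to FMC 4, against 113 and 215 FPKM in FM 1 and FM 2. The FM pair spanned all 4 FMC values, so the groups overlapped fully. The means were 160 ± 31.6 FPKM in FMC (SD, n = 4) and 164 ± 72.7 FPKM in FM (SD, n = 2). The difference on the log2(FPKM + 1) scale was 0.02 ± 0.47 (SE; limma, adjusted p = 0.999), and an exact two-sided permutation test over all 15 assignments of the libraries gave p = 1. That test cannot give a p under 0.0667 with 4 against 2 libraries.

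Fcgr3 (ENSMUSG00000059498, chromosome 1, 172981299 to 172995066, mm9) encodes a low-affinity activating receptor that binds immune complexes. The table holds values of 337 FPKM in FMC 1 and 218 FPKM in FMC 3, against 270 FPKM in FM 1. It holds no value for FMC 2, FMC 4 or FM 2. The FM value lies between the FMC values. A limma fit that keeps genes with missing values, added after the data were seen, gave a difference of 0.01 ± 0.76 (SE, log2; adjusted p = 1.00) from these 3 libraries, with the lone FM library assumed to vary like the FMC pair. Only 94 genes of the table lacked a value in some but not all libraries.

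Fcgr4 (ENSMUSG00000059089, chromosome 1, 172949050 to 172959892, mm9) encodes an activating receptor of intermediate affinity, which in mice binds IgG2a and IgG2b. It stood at 14.6, 23.6, 21.3 and 111 FPKM in FMC 1 to FMC 4, against 6.69 and 19.4 FPKM in FM 1 and FM 2. FMC 4 lay far above the rest, FMC 2 and FMC 3 lay slightly above both FM libraries, and FMC 1 lay between the FM libraries. The means were 42.6 ± 45.7 FPKM in FMC (SD, n = 4) and 13.04 ± 8.99 FPKM in FM (SD, n = 2). The fitted difference was 1.32 ± 0.83 (SE, log2), a 2.50-fold higher level, with an adjusted p of 0.993 in limma and p = 0.333 in the exact two-sided permutation test. Without FMC 4 the difference was 0.71 (log2) and without FM 1 it was 0.62. With libraries of the same sex set side by side, Fcgr4 was higher by 1.68 and 1.54 (log2) in the male FMC libraries than in FM 1. In the female libraries it was lower in FMC 1 (-0.39) and higher in FMC 4 (2.46) than in FM 2. A gene of the small nuclear RNA U1 lies within Fcgr4 (chromosome 1, 172958095 to 172958260) and was listed at 0 in FMC 1 to FMC 3 and at 57.3 FPKM in FMC 4, against 0 in FM 1 and 6.47 FPKM in FM 2. Monocytes are a class of cells known to carry Fcgr4. Their markers summed to 62.1, 65.1, 45.6 and 53.3 FPKM in FMC 1 to FMC 4. In FM 1 and FM 2 the sums were 40.6 and 36.3 FPKM. These sums leave out Chi3l3, which lacked a value in FMC 1 and FM 1, and no share over all genes was computed for them. Of the 6 tested monocyte markers 4 averaged higher and 2 lower in FMC. For 0 of the 6 did all FMC libraries lie above both FM libraries, against 4.34% of all tested genes. The part of the U1 gene or of monocytes in the level of Fcgr4 was not tested.

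The inhibitory receptor Fcgr2b (ENSMUSG00000026656, chromosome 1, 172890688 to 172906678, mm9) stood at 154, 111, 158 and 373 FPKM in FMC 1 to FMC 4, against 133 and 285 FPKM in FM 1 and FM 2. The FM values fell inside the FMC range, which FMC 2 and FMC 4 bounded. The means were 199 ± 118 FPKM in FMC (SD, n = 4) and 209 ± 108 FPKM in FM (SD, n = 2), with a difference of -0.13 ± 0.60 (SE, log2; limma, adjusted p = 0.999; exact permutation p = 0.933). Fcgr2b, Fcgr4 and Fcgr3 lie within 104 kb of chromosome 1 and Fcer1g lies within 274 kb of the same stretch, measured from Fcgr2b.

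Fcer1g (ENSMUSG00000058715, chromosome 1, 173159702 to 173164496, mm9), the shared signalling chain, stood at 797, 471, 394 and 881 FPKM in FMC 1 to FMC 4, against 429 and 843 FPKM in FM 1 and FM 2. Each group held high and low libraries, and the groups overlapped. The means were 636 ± 239 FPKM in FMC (SD, n = 4) and 636 ± 293 FPKM in FM (SD, n = 2), and the difference was -0.0003 ± 0.58 (SE, log2; limma, adjusted p = 1.00; exact permutation p = 1).

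Fcgrt (ENSMUSG00000003420, chromosome 7, 52348362 to 52359192, mm9) encodes FcRn, an intracellular receptor of the MHC class I fold that pairs with B2m and returns IgG and albumin to the cell surface. It stood at 24.1, 15.3, 22.2 and 39.8 FPKM in FMC 1 to FMC 4, against 32.1 and 58.2 FPKM in FM 1 and FM 2. FMC 1 to FMC 3 lay below both FM libraries and FMC 4 lay between them. The means were 25.3 ± 10.3 FPKM in FMC (SD, n = 4) and 45.2 ± 18.4 FPKM in FM (SD, n = 2). The fitted difference was -0.83 ± 0.54 (SE, log2), 0.563 of the FM level, with an adjusted p of 0.993 in limma and p = 0.267 in the exact two-sided permutation test. Set beside the FM library of its own sex, Fcgrt was lower in each FMC library. The differences were -1.24 and -0.54 (log2) in FMC 1 and FMC 4 and -1.02 and -0.52 (log2) in FMC 2 and FMC 3. Each FM library served for both FMC libraries of its sex, so these differences are not independent. The share of all genes with this pattern was not computed, and the median gene was at -0.12 (log2) between the groups. Markers of border-associated macrophages, a neighbouring macrophage type, summed to 183 to 345 FPKM in FMC and to 428 and 548 FPKM in FM. This sum leaves out F13a1, which lacked a value in FMC 1 and FMC 4. Mrc1 and Pf4, 2 of 6 tested markers, lay below both FM libraries in every FMC library, as did 8.22% of all tested genes. The other tested markers of these macrophages overlapped between the groups. All 6 averaged lower in FMC, with a median of -0.86 (log2). All 11 microglia markers also averaged lower in FMC, with a median of -0.23 (log2) and overlapping values. The part of border-associated macrophages in the level of Fcgrt was not tested.

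**Figure D3:**
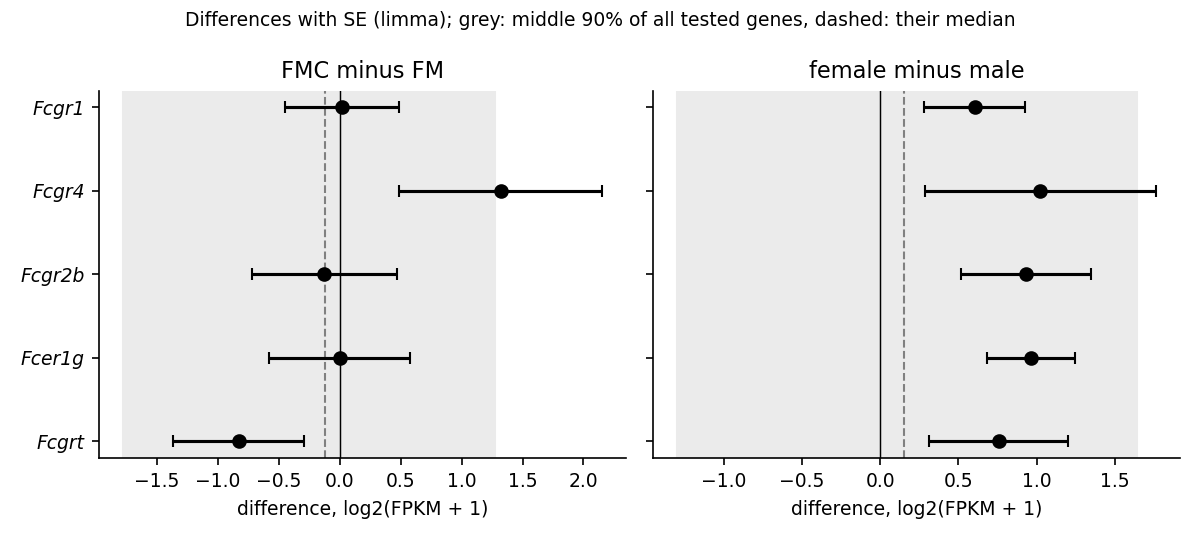
Difference of each chain with its standard error from limma, on the log2(FPKM + 1) scale, for FMC minus FM (left) and female minus male (right); grey spans the 5th to 95th percentile of all 18208 tested genes and the dashed line is their median. Fcgr4 at 1.32 lies just above the grey range, which ends at 1.28, and Fcgrt at -0.83 inside it, while all 5 chains lie to the right of the median in the comparison of the sexes.

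Activating chains were set against the inhibitory chain within each library, which removes scaling between libraries. The ratio of Fcgr4 to Fcgr2b was 0.0945, 0.213, 0.135 and 0.297 in FMC 1 to FMC 4, against 0.0503 and 0.0681 in FM 1 and FM 2. Every FMC ratio exceeded both FM ratios, as did 3.53% of the 18208 tested genes when each was divided by Fcgr2b. The ratio averaged 0.185 ± 0.0895 in FMC (SD, n = 4) and 0.0592 ± 0.0125 in FM (SD, n = 2). The level of Fcgr2b is uncertain because of the run it shares with Fcgr3. Against Fcgr1, which shares no such run, the ratio of Fcgr4 was 0.0863, 0.174, 0.157 and 0.550 in FMC 1 to FMC 4, against 0.0594 and 0.0901 in FM 1 and FM 2, and FMC 1 fell between the FM libraries. The ratio of Fcgr1 to Fcgr2b was 1.09, 1.22, 0.860 and 0.540 in FMC 1 to FMC 4, against 0.847 and 0.756 in FM 1 and FM 2, so the FM pair lay within the FMC range. Fcgr3 exceeded Fcgr2b wherever it was measured, with ratios of 2.18 and 1.38 in FMC 1 and FMC 3, against 2.03 in FM 1. Relative to Fcgr2b, the FMC and FM ratios were apart for Fcgr4 and overlapped for Fcgr1 and Fcgr3.

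An index was formed as the mean log2(FPKM + 1) of the activating receptors minus that of Fcgr2b, and is given as a description with no test. With Fcgr1, Fcgr3 and Fcgr4 it was -0.69 in FMC 1 and -0.86 in FMC 3, against -1.11 in FM 1, the libraries with all values. With Fcgr1 and Fcgr4 alone it could be given for all libraries, at -1.59, -0.95, -1.52 and -1.31 in FMC 1 to FMC 4, against -2.18 and -2.11 in FM 1 and FM 2. Every FMC library lay above both FM libraries, and the group means differed by 0.80. The index reuses the Fcgr4 and Fcgr2b levels of the ratio above, so it is not a separate observation. No share over all genes was computed for it. The difference of the means was largest with Fcgr4 as the only activating chain, at 1.45 over all libraries. With Fcgr1 as the only one it was 0.15 over all libraries. With Fcgr1 and Fcgr3 it was -0.015, from FMC 1, FMC 3 and FM 1 only. With Fcgr4 as the only activating chain, every FMC library also lay above both FM libraries. With Fcgr1 as the only one, the groups overlapped. FMC 1 was lower than FM 2 in Fcgr4 (-0.39, log2), Fcgr1 (-0.35) and Fcgr2b (-0.88). The higher index of FMC 1 than of FM 2 thus follows from its lower Fcgr2b, a level that is uncertain as stated above.

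The ratios of Fcgrt to these receptors ran in the opposite direction. Its ratio to Fcgr1 was 0.143, 0.113, 0.163 and 0.197 in FMC 1 to FMC 4, against 0.286 and 0.270 in FM 1 and FM 2. All FMC libraries lay below both FM libraries, as did 8.38% of tested genes when each was divided by Fcgr1. Its ratio to Fcgr2b was 0.156, 0.139, 0.140 and 0.106 in FMC 1 to FMC 4, against 0.242 and 0.204 in FM 1 and FM 2. All FMC libraries again lay below both FM libraries, as did 6.03% of tested genes divided by Fcgr2b.

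**Figure D4:**
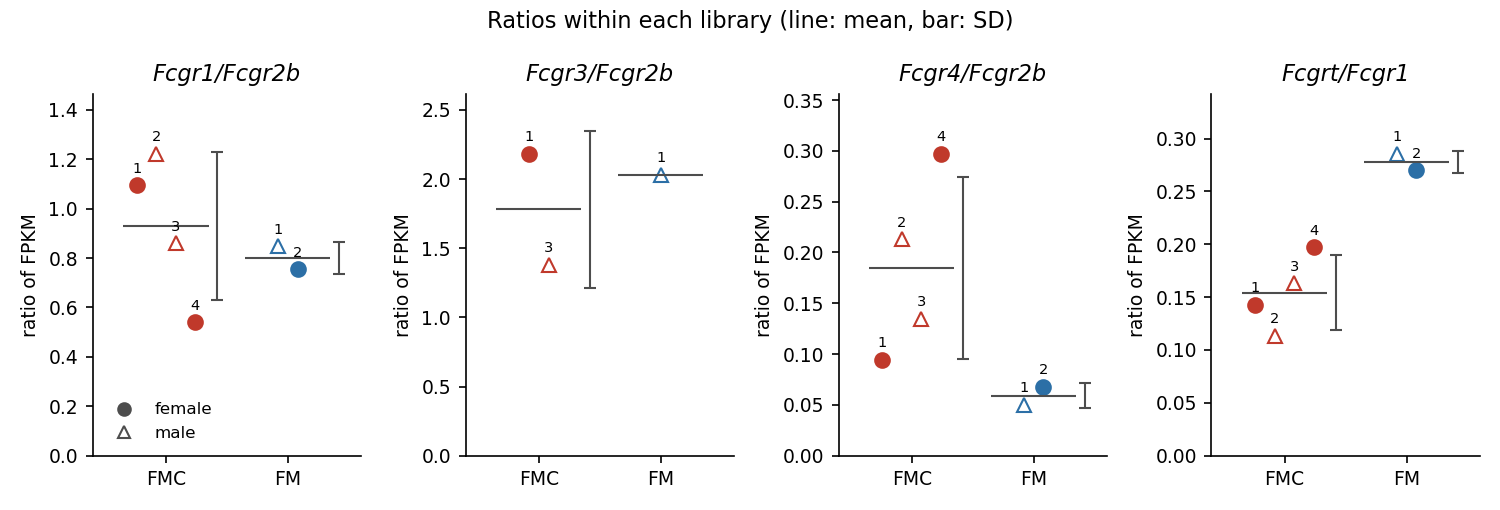
Ratios of FPKM within each library for Fcgr1, Fcgr3 and Fcgr4 over Fcgr2b and for Fcgrt over Fcgr1, in FMC and FM; numbers are the replicate, filled circles female and open triangles male libraries, lines the group means and bars the SD (none where a group has 1 value). The FMC libraries lie above both FM libraries for Fcgr4/Fcgr2b (0.0945 to 0.297 against 0.0503 and 0.0681) and below both for Fcgrt/Fcgr1 (0.113 to 0.197 against 0.270 and 0.286).

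The libraries labelled female and male were compared after the data were seen, with genotype kept in the fit. Fcer1g stood at 797, 881 and 843 FPKM in the female libraries FMC 1, FMC 4 and FM 2, against 471, 394 and 429 FPKM in the male libraries FMC 2, FMC 3 and FM 1. Fcgr1 stood at 169, 202 and 215 FPKM in the female libraries in the same order, against 135, 136 and 113 FPKM in the male ones. For both chains every female library lay above every male one, as did 9.03% of all tested genes (3.27% lay below) and 36.9% of the 739 genes with a mean of at least 100 FPKM. The difference of Fcer1g was 0.96 ± 0.28 (SE, log2), with an unadjusted p of 0.00927 and an adjusted p of 0.484 in limma, and that of Fcgr1 was 0.60 ± 0.32 (adjusted p = 0.732). Fcgr2b (0.93 ± 0.41), Fcgr4 (1.03 ± 0.74) and Fcgrt (0.76 ± 0.45) also averaged higher in the female libraries, with overlapping values. Of all genes 0.0% were called in either direction, 7.44% had an unadjusted p under 0.05, and the median gene differed by 0.15 (log2), or by 0.64 among those with a mean of at least 100 FPKM.

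The female libraries also had the higher FPKM sums, and the comparison depends on that scale. With each library rescaled to a sum of 1000000 FPKM, Fcer1g was at 1181, 1365 and 1384 in the female libraries, against 1047, 797 and 1020 in the male ones, so the values still did not overlap, as for 3.94% of all tested genes and 17.1% of those with a mean of at least 100 FPKM. The rescaled values of Fcgr1 overlapped, at 250, 312 and 354 in the female libraries, against 301, 275 and 268 in the male ones. With quantile normalization the difference of Fcer1g was -0.019. None of the 5 chains passed the test of a genotype difference that differs between the sexes (limma interaction), and of all tested genes 0.0% passed it and 3.77% had an unadjusted p under 0.05.

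Genes that work with the receptors were read from lists by role. None of their members passed the test in either direction. Of 17 tested kinases and adaptors downstream of activating receptors, 11 averaged higher and 6 lower in FMC, with a median difference of 0.05 (log2) beside -0.12 for all genes. Fgr, a kinase of the Src family, stood at 13.3, 20.1, 40.0 and 31.8 FPKM in FMC 1 to FMC 4, against 5.92 and 9.23 FPKM in FM 1 and FM 2. Every FMC value exceeded both FM values for Fgr, and likewise for Syk and Gab2, which makes 3 of 17 genes, against 4.34% of all tested genes, but the difference of Fgr did not pass (1.58 ± 0.60, limma, adjusted p = 0.790). Lyn, another Src family kinase, averaged 154 FPKM in FMC and 143 FPKM in FM. Card9, an adaptor downstream of Syk, averaged 108 FPKM in FMC and 59.3 FPKM in FM (1.04 ± 0.64, SE, log2). Vav3, an exchange factor, averaged 6.07 FPKM in FMC and 17.8 FPKM in FM (-1.66 ± 0.95), and both genes had overlapping groups.

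Of 12 inhibitory phosphatases and brakes, 7 averaged higher and 5 lower, with a median of 0.27, which was 0.028 without FM 1 and 0.047 without FMC 4. Inpp5d, the phosphatase that acts at the Fcgr2b motif printed above, stood at 118, 142, 189 and 200.5 FPKM in FMC 1 to FMC 4, against 121 and 209 FPKM in FM 1 and FM 2, and did not differ beyond its spread (-0.01 ± 0.47, adjusted p = 1.00 in limma). Ptpn6, a phosphatase recruited by many inhibitory receptors, averaged 320 FPKM in FMC and 178 FPKM in FM (0.84 ± 0.69, and 0.11 without FM 1), and Pag1, a membrane adaptor that holds Csk, 37.1 FPKM in FMC and 22.9 FPKM in FM (0.77 ± 0.54). Cblb, a ubiquitin ligase, was the only 1 of the 12 whose FMC values all exceeded both FM values, against 4.34% of all tested genes.

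Other receptors that signal through Fcer1g did not move together either, with 3 of 7 tested genes higher, 4 lower and a median of -0.03. Csf2rb, a cytokine receptor chain, averaged 45.9 FPKM in FMC and 46.4 FPKM in FM. The lectin receptor gene Clec4b1 averaged 38.4 FPKM in FMC and 17.7 FPKM in FM (0.59 ± 1.70, SE, log2). Clec4n averaged 4.87 FPKM in FMC and 2.28 FPKM in FM (0.59 ± 1.04). Pira2 averaged 5.78 FPKM in FMC and 14.9 FPKM in FM (-1.24 ± 0.75), and the groups overlapped for each of these genes. Among the 5 other ITAM chains the median was -0.01, but it was -1.002 without FM 1 and 1.45 without FM 2. Tyrobp, the adaptor of Trem2 and many other receptors of microglia, stood at 2053, 1438, 1126 and 3678 FPKM in FMC 1 to FMC 4, against 945 and 3746 FPKM in FM 1 and FM 2, above Fcer1g in every library and with groups that overlapped. Cd79a, a chain of the B cell receptor, had higher values in all FMC libraries than in both FM libraries, the only 1 of these 5 chains to do so, against 4.34% of all tested genes (2.19 ± 0.77, adjusted p = 0.747 in limma), while its partner Cd79b averaged 20.7 FPKM in FMC and 61.9 FPKM in FM. Cd247, the zeta chain of T cells and NK cells, averaged 8.85 FPKM in FMC and 1.03 FPKM in FM, with overlapping groups (2.10 ± 0.98, SE, log2). B cell markers summed to 34.9 to 156 FPKM in FMC and 48.5 and 121 FPKM in FM, and T cell markers to 25.8 to 131 FPKM in FMC and 12.5 and 28.9 FPKM in FM, and their part in these chains was not tested.

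The ligands of the receptors are IgG heavy chains with their light chains, and their transcripts are made by B cells and plasma cells. Ighg2b stood at 616, 60.6, 89.4 and 403 FPKM in FMC 1 to FMC 4, against 3.04 and 49.6 FPKM in FM 1 and FM 2. Igkc, the kappa light chain shared by all antibody classes, stood at 49907, 10620, 6236 and 16959 FPKM in FMC 1 to FMC 4, against 3363 and 2585 FPKM in FM 1 and FM 2. For both genes, 2 of the 5 tested of this list against 4.34% of all genes, every FMC value exceeded both FM values, yet within FMC the values spread widely and neither difference passed (Ighg2b 3.75 ± 1.17, adjusted p = 0.676; Igkc 2.38 ± 1.06, adjusted p = 0.939; limma). The 5 tested genes of this list had a median of 1.67, with 4 higher and 1 lower, and that median was 0.69 without FMC 1 and 0.95 without FM 2. Such RNA belongs to another cell type than microglia, and the kappa chain alone exceeded every chain of the receptor family in every library.

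**Figure D5:**
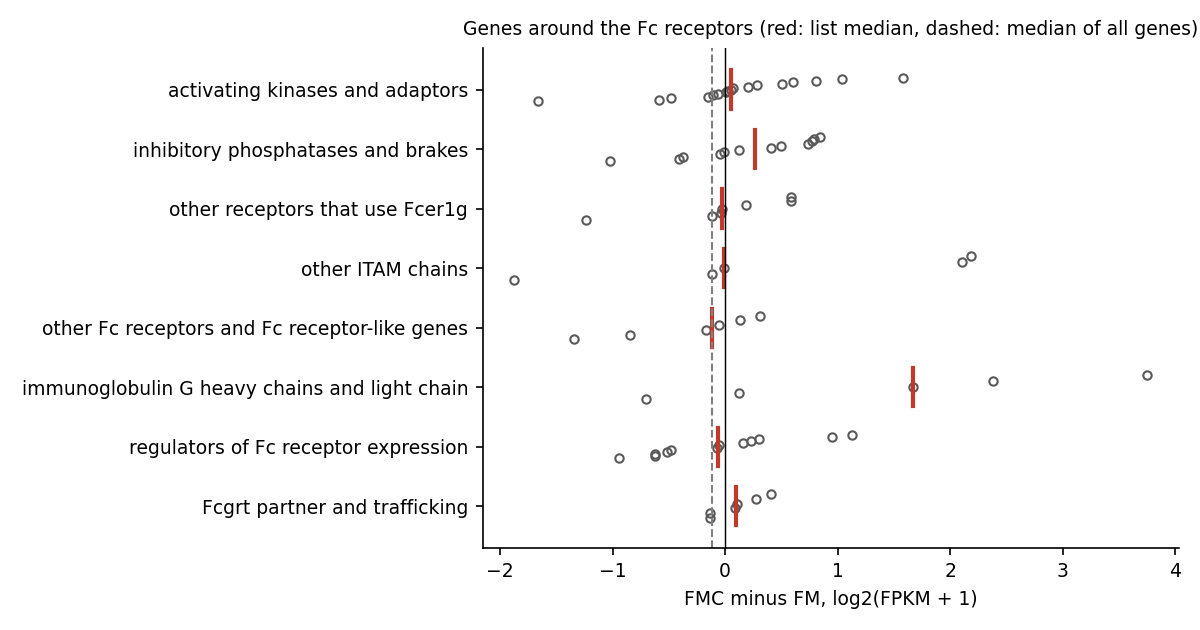
Difference of FMC minus FM on the log2(FPKM + 1) scale for each tested gene (circles) of 8 lists of genes around the Fc receptors; red bars are list medians and the dashed line is the median of all tested genes at -0.12. The IgG list has the highest median at 1.67, with genes from -0.70 to 3.75, and no gene shown passed the test.

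Of 6 other Fc receptors and receptor-like genes, Fcrls, an Fc receptor-like gene known as abundant in mouse microglia, stood at 21.1, 11.2, 5.23 and 17.6 FPKM in FMC 1 to FMC 4, against 21.2 and 50.6 FPKM in FM 1 and FM 2. All FMC values lay below both FM values, as for 8.22% of all tested genes, although FMC 1 and FM 1 were nearly equal, and the difference did not pass (-1.35 ± 0.68, adjusted p = 0.993 in limma). The list had a median of -0.11 (-0.64 without FMC 3 and -0.72 without FM 1), with Faim3, which encodes an IgM receptor, at 8.94 FPKM in FMC and 13.4 FPKM in FM, and Trim21, the cytosolic antibody receptor, at 12.6 FPKM in FMC and 12.7 FPKM in FM.

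Regulators known to raise or lower Fc receptor genes had a median of -0.06 over 12 tested genes. Ifngr1, a chain of the interferon gamma receptor, averaged 199 FPKM in FMC and 311 FPKM in FM (-0.62 ± 0.46), and Sfpi1, the gene of the macrophage factor PU.1, 134 FPKM in FMC and 109 FPKM in FM (0.30 ± 0.49). The 6 genes around Fcgrt had a median of 0.10, with -0.48 without FM 1 and 0.47 without FM 2. B2m, its partner chain, averaged 4144 FPKM in FMC and 3078 FPKM in FM (0.41 ± 0.76) while Fcgrt averaged lower. Rab11a, a GTPase of recycling endosomes, averaged 141 FPKM in FMC and 154 FPKM in FM, and Ehd1, of the same compartment, 23.4 FPKM in FMC and 26.4 FPKM in FM.

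The promoter of Fcgr4, the chain with the largest fold range between libraries (16.6-fold), is shown because PU.1 is a known regulator of Fc receptor genes of macrophages. It runs from 250 bases before to 50 bases after the start of the gene in RefSeq (GRCm38.p6), at chr1:171018676-171018975 on the plus strand. Capitals mark the match of GAGGAA, the core bound by PU.1, searched on either strand and found here on the opposite strand.
Fcgr4 promoter: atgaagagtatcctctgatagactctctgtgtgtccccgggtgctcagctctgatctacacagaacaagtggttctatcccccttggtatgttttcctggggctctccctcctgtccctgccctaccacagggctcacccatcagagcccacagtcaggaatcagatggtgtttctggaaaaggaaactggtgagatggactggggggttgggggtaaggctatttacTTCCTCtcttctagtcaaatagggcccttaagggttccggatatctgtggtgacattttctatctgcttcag
GAGGAA matched in the promoters of Fcgr1, Fcgr3 and Fcgr4 and not in those of Fcgr2b, Fcer1g and Fcgrt, and it matched in 28.3% of 32851 promoters of all genes. These are matches of letters within the window and do not show that a factor binds.

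The genes with the most similar profile over the 6 libraries were found for each chain by the root mean square difference of centred log2(FPKM + 1) values among 8223 genes with a mean of at least 5 FPKM. They included Lamp2 and Snx17 for Fcgr1 (0.08 for Lamp2), Ola1, Brd8 and Gbp4 for Fcgr4 (0.23 for Ola1), and Sars, Eif5a and Rp2h for Fcgr2b (0.14 for Sars). They were Exoc3, Mapkapk5 and Fhod1 for Fcer1g (0.10 for Exoc3) and Mfsd5, Zmpste24 and Txnip for Fcgrt (0.13 for Mfsd5). Within the family the closest pair was Fcer1g and Fcgr1, at 0.23. Many other genes were closer, since Fcgr1 ranked 76 for Fcer1g and Fcer1g ranked 149 for Fcgr1 beside the 8223 genes. With 6 libraries that differ in FPKM sum, such likeness also follows what the libraries share in scale, and it is given as a description.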

How the data were processed

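Microglia were isolated by a Percoll gradient followed by flow sorting, and RNA was amplified with the Ovation RNA-Seq method and sequenced on an Illumina HiSeq, per the labels' protocols. The deposited table holds FPKM computed by the authors per Ensembl gene and library. Cufflinks 2.0.2, TopHat2 2.0.4, Bowtie2 2.0.0 and CASAVA 1.8.2, with the build mm9, are named in the submitters' processing notes, which give no role or setting. The sources used here do not state how strand was treated. Read counts per library were not used here, so depth is unknown and precision rests on the spread between libraries. Each of the 6 value columns carries the name of its library.

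Values were tested as log2(FPKM + 1) with limma 3.58.1 (intensity trend) in R 4.3.3, two-sided, over 18208 genes that reached 1 FPKM in 2 or more of 6 libraries and lacked no value, with Benjamini-Hochberg adjustment over all of them and a threshold of 0.05. A fold on this scale understates changes of low genes. Single chains also had an exact permutation test over 15 splits. Means, ratios and percentages are of linear FPKM. Of the 37447 genes 426 lack a value in some library, Fcgr3 among them, so Fcgr3 is not in that fit, and the planned index of 3 activating chains exists for 3 libraries. A fit that keeps such genes, the comparison of the sexes, its interaction with genotype and rescaling to an equal FPKM sum were chosen after seeing the data. Only the plain fit of FMC against FM was run on simulated data, with independent normal noise and no effect of sex or scale. The other fits were not run on simulated data.

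The members and lists were chosen with earlier results of these data known. Named from each list were up to 4 genes (the 2 with the smallest p and the 2 with the highest mean) and from marker lists the first and the highest; Syk, Gab2, Cblb, Mrc1 and Pf4 were also named because their groups did not overlap, and Eif2s3y, Ddx3y and Nf1 as checks of the labels. Some genes that this rule names are not reported here. Spi1 is listed as Sfpi1 and was matched by gene identifier. Gene positions are those of the table (mm9). Coding sequences came from GENCODE M21 transcripts (GRCm38), aligned with Biopython 1.88, and promoters from RefSeq (GRCm38.p6); the builds were not mixed. Alternatives were a pseudocount of 0.1, other filters and scalings, no intensity trend, library weights, a sex covariate, a block by replicate number, a block by title dates (1 day apart), and omission of each library.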

Additional observations from a re-analysis of the deposited data

Results flagged for a closer look

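The level of Fcgr4 in FMC 4, 111 FPKM, stood apart from the 14.6 to 23.6 FPKM of the other FMC libraries by more of the group's range than Dixon's 95% limit for 4 values (0.829). This was checked in 13 groups of values, and chance marks about 1 in 20. In the same library Fcgr2b (373 FPKM) was also the highest of all libraries, and the U1 gene inside Fcgr4 had 57.3 FPKM.

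Fcgr1 was marked because its difference between FMC and FM had opposite directions in the sexes. In the female libraries FMC 1 and FMC 4 it was lower than in FM 2, with differences of -0.35 and -0.10 (log2), and in the male libraries FMC 2 and FMC 3 it was higher than in FM 1, with differences of 0.26 and 0.27 (log2). The test of the difference between the sexes gave -0.49 ± 0.66 (SE, log2; limma interaction, adjusted p = 0.999), and each comparison within a sex rests on 1 FM library.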

How the results depend on the processing

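No chain passed the threshold under any alternative run. Fcgr4 stayed higher and Fcgrt lower in FMC in all 18 alternatives each. With 1 library left out they ranged from 0.62 to 2.02 for Fcgr4 and from -1.25 to -0.41 for Fcgrt (log2). The near-zero differences changed sign. Fcgr1 was -0.12 with rescaled sums and -0.20 with the date block, and -0.44 to 0.49 with 1 library left out. Fcgr2b was 0.026 and Fcer1g 0.15 with median ratio scaling, and with 1 library left out they were -0.67 to 0.42 and -0.49 to 0.49. With the date block Clec4n was -0.0016 and B2m -0.051, and with 1 library left out Clec4n was -0.12 to 1.30, B2m -0.073 to 0.88 and Ehd1 -1.06 to 1.61. The difference of the sexes in Fcer1g was -0.019 with quantile normalization. The difference of the index was 0.80 without Fcgr3, over all libraries. It was -0.015 without Fcgr4, from FMC 1, FMC 3 and FM 1 only.

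The 5 genes called overall became 1 with a pseudocount of 0.1, 0 without a filter, 0 with a mean of at least 5 FPKM, 10 without the trend, 0 with sex as a covariate and 3 with the date block. With 1 library left out 0 to 8 were called between FMC and FM (8 without FMC 4, 0 without FMC 2, FMC 3, FM 1 or FM 2) and 0 to 4 between the sexes (4 without FMC 1). The causes were not tested. The median of all genes was -0.12 (log2) and moved to -0.26 with rescaled sums and to 0.04 with quantile normalization.

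The groups share replicate numbers 1 and 2 only, and the deviations of same-numbered libraries had correlations of 0.03 and -0.06. The deviations of the 2 FM libraries mirror each other, and each same-numbered pair joins a female and a male library. These correlations therefore cannot decide whether the numbers pair the libraries. With the replicate block 0 genes were called, Fcgr1 was -0.043, Fcer1g 0.028, Fcgr4 0.64, Fcgr2b -0.57, Fcgrt -1.13 and Ehd1 -0.18. The index was 0.43 for the single pair FMC 1 and FM 1 that has all 3 activating chains, and 0.87 for both numbers with Fcgr1 and Fcgr4 alone (0.80 without the block).

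FPKM without counts gives no counting error, and 2 FM libraries of different sex set the limit of every comparison.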
